A study of Drosophila melanogaster with 2 samples.

Results

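Binding of the zinc finger protein encoded by sugarbabe (sug) was examined at the genes of 10 proteins that themselves act at promoters and at insulators. The genes were Dref, M1BP, BEAF-32, CTCF, Cp190, su(Hw), mod(mdg4), Trl, pzg and Chro. They were chosen by name for the roles of their products, with earlier results of these data known. All 10 symbols were found among the 13945 protein-coding genes on the 6 chromosome arms with peaks. Chromatin immunoprecipitation with sequencing (ChIP-seq) used an anti-GFP antibody and intact embryos of both sexes, 8 to 24 hours old, from a stable transgenic fly line whose sug protein carries GFP at its C terminus. There was 1 group with 2 biological replicates, and embryos without the tagged protein were not analysed here, so each value describes this 1 line and has no control beside it. A summit is the position of highest signal in a peak, and coordinates are on the dm6 assembly. The authors kept 9342 summits, from 8530 distinct intervals, at their irreproducible discovery rate (IDR) threshold. They also gave lists of 30000 summits for the pooled reads and for each replicate. Each summit carries a signal score of the authors' own, which ranks summits within a list only. The IDR set had scores from 223.8 to 24384 with a median of 424.3. Its lowest score was 223.824, and the highest pooled score outside it was 223.796. The set thus holds the highest-scoring summits of the pooled list. Of its summits, 90.1% had a summit of both replicates within 100 bp. The depth behind each summit is unknown, because no read counts came with the lists.

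In flies, much of the genome is divided by insulators, DNA elements where bound proteins keep an enhancer from reaching a promoter on the other side or hold chromatin domains apart. Several insulator proteins also sit just upstream of the transcription start sites (TSSs) of broadly expressed genes. There they overlap with DREF and M1BP, which read short words in the core promoters of housekeeping genes, and with Z4 (the product of pzg) and Chromator (the product of Chro), which mark the open interbands of polytene chromosomes. DREF reads the DNA replication-related element (DRE), written TATCGATA, and M1BP reads a word that holds GGTCACACT. These words show whether the factor genes carry the elements read by DREF and M1BP at their own promoters.

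The words found at the own promoters of CTCF, Cp190, mod(mdg4) and su(Hw), and the shorter ATCGAT at Dref, are shown with 10 bases on each side. They are printed along the strand of the gene, which is the minus strand of dm6 for all 5, with the word in capitals. Their places are chr3L:7356717-7356744 for CTCF, chr3R:15275228-15275255 for the first start site of Cp190 and chr3R:15274794-15274821 for its second, chr3R:21377438-21377465 for mod(mdg4), chr3R:14308566-14308594 for su(Hw) and chr2L:9967230-9967255 for Dref.
CTCF DRE: ccaatcgaacTATCGATAgctggcggta
Cp190 DRE at the first start site: atcgcatggcTATCGATAgctgccgagc
Cp190 DRE at the second start site: cacaggcgtaTATCGATAtttgcgagtt
mod(mdg4) DRE: tattttaagcTATCGATAtattgtcact
su(Hw) M1BP word: tacatgcaacGGTCACACTgaattttcat
Dref shorter word: ttccccagctATCGATtggtgatgca

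The sequence under the summits themselves is shown at 3 promoters with the highest share of A and T and at 2 summits of Trl that differ in signal. Each window has the summit base in capitals, with 50 bases on each side, and is again printed along the minus strand of dm6. The windows lie at chr3R:8731878-8731978 (M1BP), chr3R:14308906-14309006 (su(Hw)), chr3R:15275363-15275463 (Cp190), chr3L:14759394-14759494 (Trl, intron) and chr3L:14758011-14758111 (Trl, next to a start site). None of them overlaps an annotated exon.
M1BP: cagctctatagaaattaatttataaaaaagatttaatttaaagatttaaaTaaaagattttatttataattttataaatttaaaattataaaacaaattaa
su(Hw): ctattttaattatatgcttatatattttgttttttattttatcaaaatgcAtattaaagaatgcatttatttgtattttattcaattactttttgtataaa
Cp190: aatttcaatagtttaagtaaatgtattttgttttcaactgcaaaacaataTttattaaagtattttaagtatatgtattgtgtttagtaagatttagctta
Trl intron: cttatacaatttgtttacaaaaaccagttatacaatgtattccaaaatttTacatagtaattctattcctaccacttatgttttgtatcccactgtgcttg
Trl start site: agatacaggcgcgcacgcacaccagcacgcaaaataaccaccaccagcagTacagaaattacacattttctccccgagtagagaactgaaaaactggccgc

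Every one of the 10 genes carried a promoter summit, meaning an IDR summit at most 1 kb from a TSS, and 39.3% of the 13945 protein-coding genes carried one. Cp190 and Chro had the strongest promoter summits of the group and su(Hw) the weakest. In the window from 2 kb upstream of each gene to 1 kb past its end, all 10 genes had an IDR summit (48.8% of protein-coding genes) and all 10 a summit of the pooled list (62.3%). The median length of the 10 genes was 4173.5 bp against 2166 bp for all protein-coding genes, and M1BP and BEAF-32 alone were shorter than the latter. The median window of the 10 genes therefore covers more sequence. With 1 group there was no test, and the counts are read beside these shares of all genes.

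The strongest promoter summits of the 10 genes lay between the 33.3rd and the 98.5th percentile of the IDR signal, with a median of 84.3. The median over all 5485 protein-coding genes with a promoter summit was 61.5. In Dref, M1BP, Cp190 and Chro the promoter summit was among the 934 highest of the IDR set (its top 10%). This was so for 819 of the 5485 genes with a promoter summit, which are 5.87% of all protein-coding genes. The summits lay 8 to 910 bp from the nearest TSS of the gene, with a median of 112.5 bp against 151 bp over all bound genes. Within 250 bp were 8 of the 10, and the median of all bound genes is within that distance too. There were 6 upstream of that TSS and 4 downstream of it. No share over all bound genes is given for these counts, so they are not read as particular to the 10 genes.

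**Figure D1:**
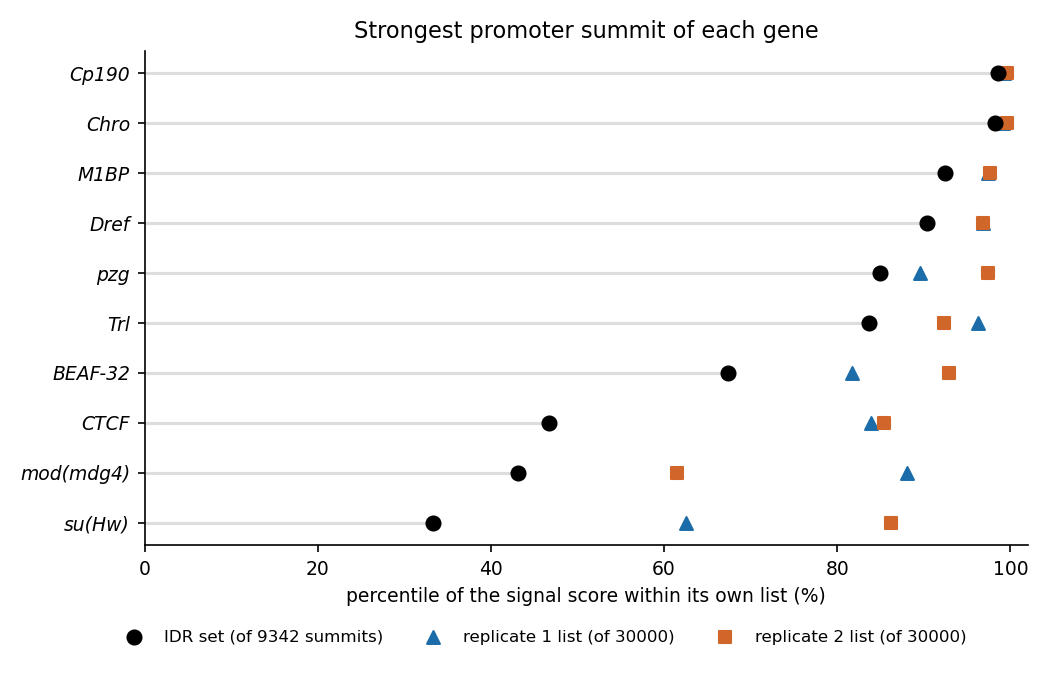
Percentile of the signal score of the strongest promoter summit of each gene, within the IDR set (black circles), the replicate 1 list (blue triangles) and the replicate 2 list (orange squares). The horizontal axis is in percent and 100 is the highest signal of a list. Cp190 and Chro stand above 98 in the IDR set and su(Hw) at 33.3, and the replicate points lie farthest apart at mod(mdg4) and su(Hw).

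Among the factors that read core promoter words, Dref had its strongest summit at the TSS and M1BP just upstream. Dref (FBgn0015664, 2L, 9964147 to 9967229, minus strand) encodes the factor that binds the DRE at genes of DNA replication and growth. Its summit at 9967200, 29 bp inside the gene in the non-coding part of an exon, had a signal of 1223 (90.4th percentile of the IDR set) and ranked 936 in replicate 1 and 954 in replicate 2. These are the closest replicate ranks of the 10 genes. The neighbour RpL13 encodes a protein of the large ribosomal subunit. Its TSS lay on the other strand, 84 bp from that of Dref and 113 bp from the summit at 9967200. A second summit of the same interval, at 9967401, was 172 bp upstream of Dref and 71 bp from the TSS of RpL13. It had a signal of 328.2 and ranked 5434 and 17935 in the replicates. The third IDR summit, at 9963905, lay past the 3′ end of Dref and 44 bp from the TSS of its neighbour CG5850, with a signal of 374.1.

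M1BP (FBgn0037621, 3R, 8729790 to 8731698, minus strand) encodes the zinc finger protein of the motif 1 promoters and had a single summit in its window, in the IDR set and in the pooled list alike. The summit at 8731928 was 230 bp upstream of the TSS, with a signal of 1407 (92.4th percentile) and ranks of 776 and 698 in the replicates. It was nearer to CG8202, which starts 393 bp away on the other strand and 163 bp from the summit. Of the 101 bases around it, 91.1% were A or T, the highest share of all 9342 IDR summits.

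The interband genes pzg and Chro both had 1 IDR summit, just upstream of pzg and just inside Chro. Chro (FBgn0044324, 3L, 22873702 to 22878984, minus strand) encodes a chromodomain protein that also associates with the mitotic spindle. Its summit at 22878902, 82 bp inside the gene, had a signal of 3037 (98.2nd percentile, rank 170 among all IDR summits) and ranked 269 in replicate 1 and 127 in replicate 2. The TSS of Ssl1, which encodes a subunit of the general factor TFIIH, lay on the other strand 105 bp from that of Chro and 187 bp from the summit. The gene pzg (FBgn0259785, 3L, 21286099 to 21290310, plus strand) encodes the zinc finger protein Z4, known as a partner of Chromator and of complexes with DREF. Its summit at 21285973 had a signal of 939.9 (84.9th percentile) and lay 126 bp upstream of pzg but 11 bp from the TSS of CG12974 on the other strand. The replicates placed it at ranks 3143 and 761. This 4.13-fold difference is larger than that of 95% of the IDR summits found in both replicates, which differed by up to 3.57-fold.

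Of the insulator proteins that bind DNA by zinc fingers, CTCF and su(Hw) had promoter summits below the IDR median. CTCF (FBgn0035769, 3L, 7353578 to 7356713, minus strand) is the fly form of the insulator protein known from vertebrates. Its summit at 7356705, 8 bp inside the gene, had a signal of 402.9 (46.7th percentile) and ranked 4844 and 4395 in the replicates. The antisense gene asRNA:CR45822 starts 704 bp from it. A pooled summit 198 bp upstream of the same TSS had a signal of 204.3, below the IDR set. The gene su(Hw) (FBgn0003567, 3R, 14304455 to 14308589, minus strand) encodes the protein that binds the insulator of the gypsy retrotransposon. Its summit at 14308956 had a signal of 333.9 (33.3rd percentile) and ranked 11250 in replicate 1 and 4128 in replicate 2. It lay 367 bp upstream of su(Hw) and 133 bp from the TSS of Polr2I, which encodes a subunit of RNA polymerase II and starts 500 bp from su(Hw) on the other strand.

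The cofactor genes differed widely: Cp190 stood first in the promoter order and mod(mdg4) above su(Hw) alone. Cp190 (FBgn0000283, 3R, 15270432 to 15275241, minus strand) encodes a BTB domain protein that insulator proteins recruit and that is also found at centrosomes. Its promoter summit was the strongest of the 10 genes, with a signal of 3388 (98.5th percentile, rank 139 among all IDR summits) and ranks of 211 and 108 in the replicates. The summit, at 15275413, lay 172 bp upstream of Cp190 and 109 bp from the TSS of CG4338 on the other strand. The TSS of asRNA:CR46081 was 804 bp from it. Of the pooled summits below the IDR set, that at 15269720, past the end of Cp190, lay in an intron of Zip88E with a signal of 44.4. The gene mod(mdg4) (FBgn0002781, 3R, 21350846 to 21377401, minus strand) encodes a BTB domain partner of the su(Hw) protein in many isoforms, some of them made by trans-splicing. Its promoter summit at 21376491, in an intron 910 bp past the TSS, had a signal of 382.1 (43.1st percentile) and ranked 3588 in replicate 1 and 11542 in replicate 2. At the TSS itself, 41 bp inside the gene, there was a pooled summit with a signal of 188.9, below the IDR set.

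The strongest summit of mod(mdg4) was not at the TSS annotated for mod(mdg4) itself. An intronic summit at 21365453, 11948 bp past the TSS, had a signal of 2574 (97.5th percentile, rank 230 among all IDR summits) and ranked 460 and 152 in the replicates. It fell in an exon of pre-mod(mdg4)-E, 1 of 10 separately annotated pre-mod(mdg4) genes with a TSS within 1 kb of it. The nearest of these start sites was 35 bp away. Another intronic summit at 21373614, 39 bp from the TSS of a further pre-mod(mdg4) gene, had a signal of 616.4 (70.4th percentile) and ranked 4424 and 2066. The fourth IDR summit of the window, at 21378759, was 1358 bp upstream of mod(mdg4) and 218 bp from the TSS of tin, the homeobox gene of heart and visceral muscle. It had a signal of 895.3 and ranked 1374 in replicate 1, with no summit within 100 bp in replicate 2.

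Trl had the largest number of summits and the strongest single one. Trl (FBgn0013263, 3L, 14747929 to 14761049, minus strand) encodes the GAGA factor, which binds GA repeats at promoters and keeps them open. Its window held 7 IDR summits in 3 intervals, and 1.57% of protein-coding genes had as many summits. Trl is 13121 bp long, against a median of 2166 bp for all protein-coding genes, and this share was not matched for length. The intronic summit at 14759444 reached a signal of 8569, or 20.2 times the IDR median, and was rank 20 of the 9342. It ranked 24 in replicate 1 and 17 in replicate 2. It lay 1605 bp past the most upstream TSS of Trl and 1482 bp from the nearest one, so it does not count as a promoter summit. No TSS of another gene was within 1 kb of it.

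The strongest promoter summit of Trl, at 14758061, had a signal of 896.6 (83.7th percentile) and ranked 1125 and 2286 in the replicates. It lay 99 bp upstream of a TSS that is annotated for Trl and for CG42507 alike, on the same strand. With the 5′ end of the gene as the only TSS, Trl had no promoter summit. A second summit of that interval, at 14758261, had a signal of 512.8. The other 4 summits, between 14756090 and 14757198, shared an interval and had signals from 287.4 to 646.2. Of these, the summit at 14756090 had no replicate 1 summit within 100 bp. The summit at 14756931, the only 1 of all 22 in a coding exon, had none in replicate 2.

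**Figure D2:**
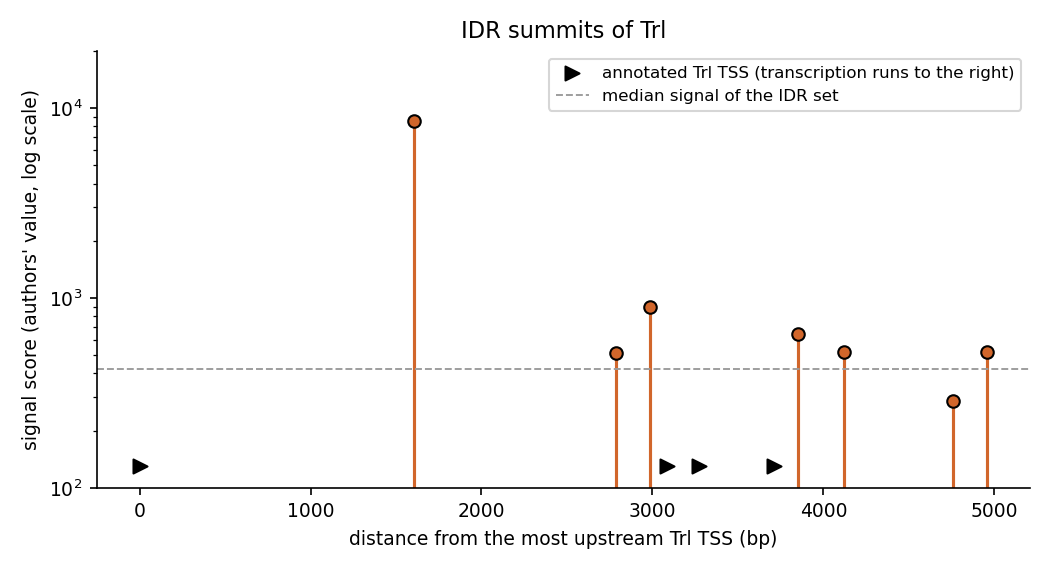
Signal score of the 7 IDR summits of Trl (log scale) against distance in bp from its most upstream TSS, with annotated start sites as black triangles and the median signal of the IDR set as a dashed line. The intronic summit at 1605 bp stands at 8569, and the other 6 lie between 287.4 and 896.6, around the start sites farther into the gene.

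BEAF-32 had a promoter summit of middle rank. The gene (FBgn0015602, 2R, 14770469 to 14772630, plus strand) encodes the boundary element factor that binds clusters of CGATA. Its summit at 14770393, 76 bp upstream of the TSS, had a signal of 580.7 (67.4th percentile) and ranked 5496 in replicate 1 and 2125 in replicate 2. It overlaps an exon of the antisense gene asRNA:CR42254. The second IDR summit of the window, at 14769508, was 961 bp upstream and 85 bp from the TSS of Spred, which encodes an inhibitor of Ras signalling. That summit had a signal of 334.6 and ranked 21376 and 4645.

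The 10 windows together held 22 IDR summits, and 6 of the genes had exactly 1. By place relative to the member gene, 8 of the 22 were upstream, 8 in introns, 4 in non-coding parts of exons, 1 in a coding exon and 1 past the end. The median number per window was 1 for the 10 genes and 0 for all protein-coding genes. The pooled list added 14 summits below the IDR threshold, in 7 of the genes, and 7 of these 14 had a summit of both replicates within 100 bp. None was added at M1BP, pzg or Trl. For the counts by place, of genes with exactly 1 summit and of added pooled summits, no share over all genes is given. They are therefore not read as particular to the 10 genes.

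**Figure D3:**
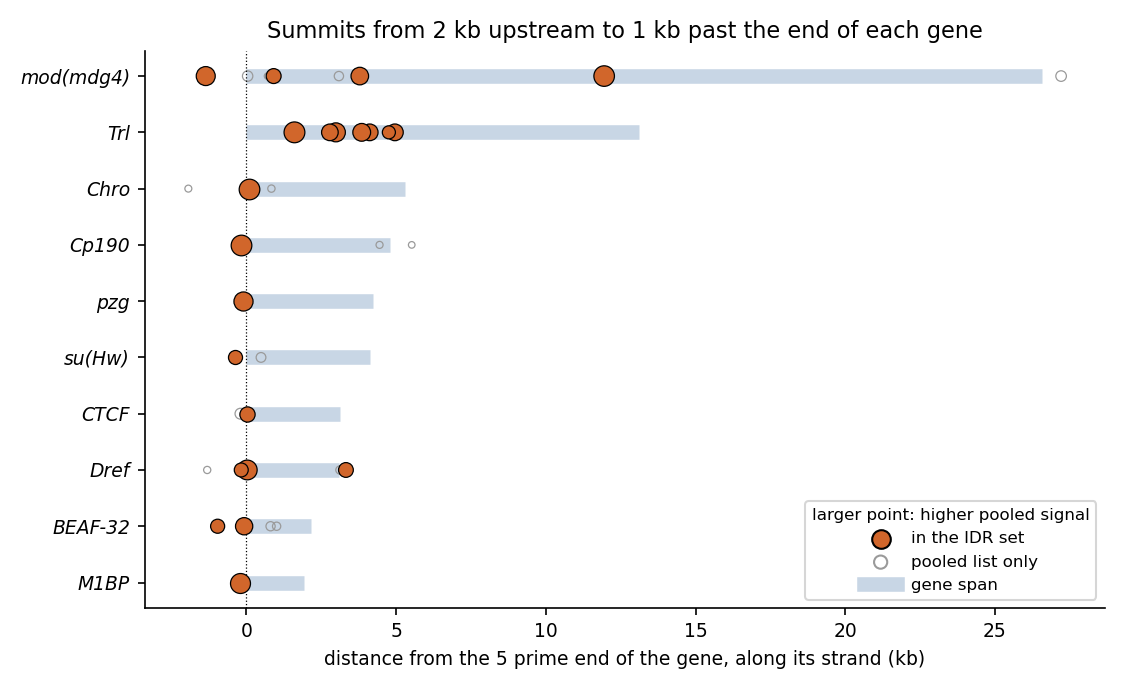
Summits in the window of each gene, by distance in kb from its 5′ end along its strand, with the gene span as a pale bar. Filled points are IDR summits, open points are summits of the pooled list alone, and larger points have a higher pooled signal. Most genes have their largest point at the 5′ end, and in Trl and mod(mdg4) it lies inside the gene.

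Most of these promoter summits had the TSS of another protein-coding gene within 1 kb, as did most over all bound genes. For 8 of the 10 genes the TSS of another protein-coding gene was within 1 kb of the strongest promoter summit, and over all 5485 genes with a promoter summit the share was 55.6%. The exceptions were CTCF and mod(mdg4). In 7 of the 8 (all but Trl) the other gene is on the opposite strand, with the start sites 84 to 1046 bp apart. The widest pair was BEAF-32 and Spred, whose TSS lay 970 bp from the summit. Among the 5485 genes, 51.2% had such an opposite-strand neighbour. The start sites were within 500 bp of each other in 6 of the 10 genes and in 40.2% of the 5485. The summit was nearer to the neighbour than to the member gene at 4 of the 10, M1BP, Cp190, su(Hw) and pzg, and at 25.9% of the 5485. At these promoters a summit marks a locus, and to which gene it belongs cannot be told apart.

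Both replicates had a summit within 100 bp of the strongest promoter summit in all 10 genes, and in 90.1% of all genes with a promoter summit. The ranks differed by 1.02-fold to 4.13-fold between the replicates, with a median of 2.08-fold, against a median of 1.49-fold for all 8419 IDR summits found in both. The promoter summit ranked higher in replicate 2 in 7 of the 10 genes and higher in replicate 1 in Dref, mod(mdg4) and Trl. Of all matched IDR summits, 52.5% ranked higher in replicate 2. Of all 22 IDR summits of the 10 genes, 19 had a partner in both replicates, beside 90.1% of the whole IDR set. Cp190 ranked above Chro, Chro above M1BP and M1BP above Dref in both replicates. The place of the others depended on the replicate: pzg stood below Dref and Trl in replicate 1 and above both in replicate 2, BEAF-32 likewise below and above CTCF, and mod(mdg4) above and below CTCF and su(Hw).

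**Figure D4:**
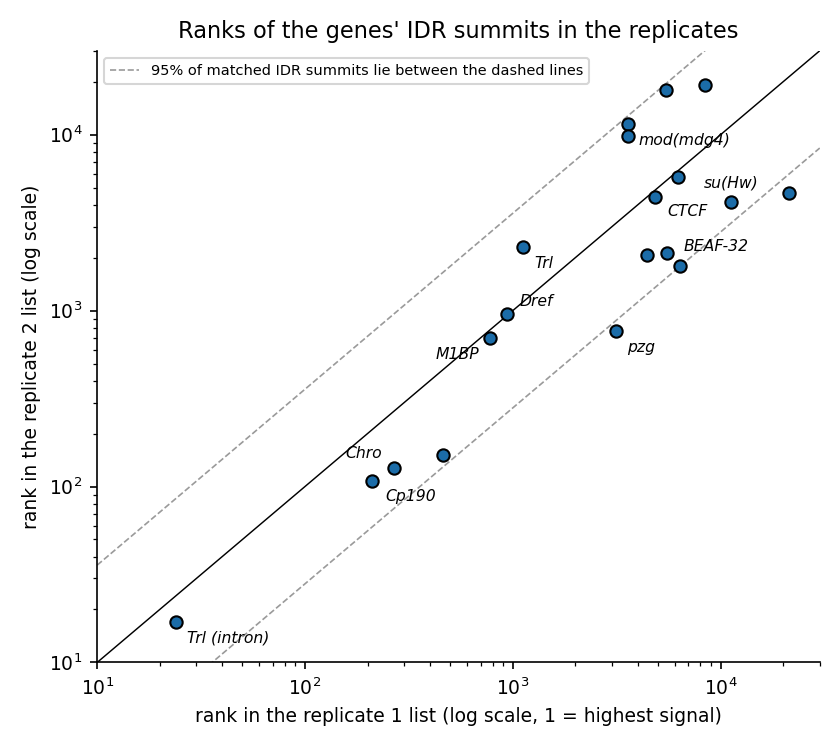
Rank in the replicate 1 list against rank in the replicate 2 list for the 19 IDR summits of the 10 genes with a partner in both, on log axes with 1 the highest signal. Labels mark the strongest promoter summit of each gene and the intronic summit of Trl, the solid line marks equal ranks, and 95% of all matched IDR summits lie between the dashed lines. The summit of pzg and the weaker BEAF-32 summit lie outside them.

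The DRE, TATCGATA on either strand from 250 bases before to 50 after a TSS, was present at BEAF-32, CTCF, Cp190 and mod(mdg4), and 10.2% of protein-coding genes held it. At CTCF the first base of the word was 21 bases before the TSS and the word lay 26 bp from the summit. Cp190 held it at both of its start sites, 4 bases before the first and 21 before the second, 172 and 606 bp from the summit. At mod(mdg4) it began 54 bases before the TSS, 960 bp from the strongest promoter summit. At BEAF-32 it began 210 bases before the TSS and lay 130 bp from the summit. Dref itself had the shorter ATCGAT, which is contained in the DRE, 16 bases before its TSS and 42 bp from its summit. This shorter word was present at 5 of the 10 genes and at 26.3% of protein-coding genes.

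The M1BP word, GGTCACACT on either strand in the same windows, was present at su(Hw) alone among the 10 and at 6.78% of protein-coding genes. It began 5 bases past the TSS and lay 376 bp from the summit of su(Hw). M1BP did not hold this word in its promoter window. The shorter GTCACAC, contained in that word, was present at Cp190 and su(Hw) and at 11.1% of protein-coding genes. Within 100 bp of the strongest promoter summit, the DRE was found at 8.28% of the 5485 bound genes and at CTCF among the 10. The M1BP word was found there at 3.97% of bound genes and at 0 of the 10. Over all protein-coding genes, 58.2% of the 1417 with the DRE and 37.2% of the others had a promoter summit. For the M1BP word the shares were 59.3% of 945 and 37.9%. A word is a match of letters and does not show that its factor was bound.

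The base composition under the summits, examined after the data were seen, ranged widely in these genes. The share of A and T in the 101 bases centred on the strongest promoter summit ran from 44.6% at pzg to 91.1% at M1BP, with a median of 63.9%. The median over all IDR summits was 58.4%, with the 5th and 95th percentiles at 42.6 and 77.2%, and the arms as a whole had 57.8%. After M1BP followed su(Hw) with 86.1% and Cp190 with 81.2%, and 0.214% and 1.50% of IDR summits had shares as high. The windows of these 3 genes printed above lie between divergent genes, and the 3 differ in signal from the 33.3rd to the 98.5th percentile. The intronic Trl summit had 71.3% and the Trl promoter summit 49.5%. The part of base composition in the signal was not tested.

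**Figure D5:**
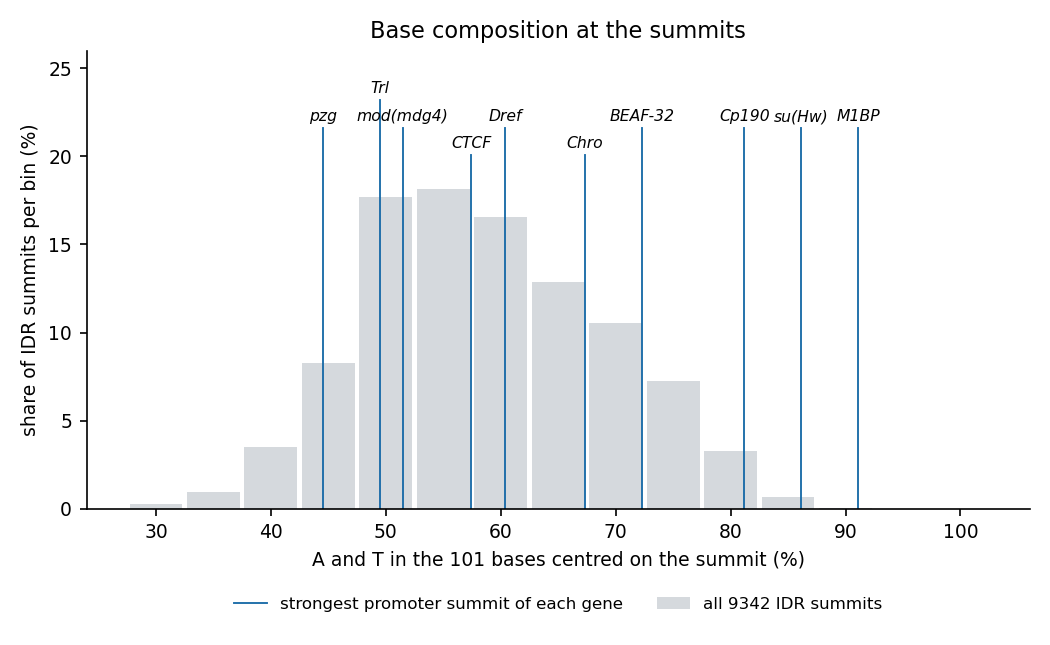
Share of A and T (%) in the 101 bases centred on the strongest promoter summit of each gene (blue lines), over the distribution of all 9342 IDR summits in bins 5 percentage points wide (grey bars, share of summits per bin in %). The lines of Cp190, su(Hw) and M1BP lie to the right of 77.2%, the 95th percentile of IDR summits.

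Genes of related function were bound at more varied shares. Of 21 other insulator, GAGA-partner and cohesin genes, 10 (47.6%) carried a promoter summit, beside the 39.3% of all protein-coding genes, and the median percentile of the 10 was 68.5. Adf1, a DNA-binding regulator, had 3683 (rank 120), Cap-H2, of the condensin II complex, 1109 and e(y)2, a subunit of the SAGA complex that also works with Su(Hw), 837.6. The Adf1 summit lay 830 bp past its TSS. Other TSSs within 1 kb were that of Dpit47 for Adf1, MED7 and asRNA:CR45016 for Cap-H2, and CG11695 for e(y)2. To which gene these summits belong cannot be told apart. Of 17 partner genes of the promoter factors, remodellers and histone-modifying complexes, 11 (64.7%) had one, with a median percentile of 48.7. The highest there were Trf2, the TBP-related factor, with 708.1, XNP, a remodeller, with 688.7 and JIL-1, a histone kinase of interbands, with 576.5. Their order depended on the replicate: Trf2 ranked 1174 in replicate 1 and 7729 in replicate 2, XNP 4569 and 1575, and JIL-1 3921 and 2778. The Trf2 summit lay 744 bp past its TSS, with the TSS of lawc within 1 kb. The XNP summit had those of CG5116 and CG42488 within 1 kb, and the JIL-1 summit had no other TSS. Of 10 general initiation and pausing genes, 7 (70.0%) had one, with a median percentile of 75.2.

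The general list was led by Nelf-A and Nelf-E, which encode subunits of the pausing complex NELF, with signals of 2437 and 1595, and by TfIIA-L, of the initiation factor TFIIA, with 2124. These summits too had other TSSs within 1 kb, among them that of CG3337 for Nelf-A, RpL14 for Nelf-E and pll for TfIIA-L. The TfIIA-L summit lay 586 bp past its own TSS. The genes of that list without a promoter summit were Tbp, Taf1 and TH1. The DRE was held by 9 of the 21, 6 of the 17 and 4 of the 10 genes of the lists, beside 10.2% of protein-coding genes. The M1BP word was held by 2, 4 and 2 of them, beside 6.78%. The list members were chosen by function, as the 10 genes were, and with earlier results of these data known. The shares are descriptions with no test.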

How the data were processed

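Summit lists of 2 biological replicates, of the pooled reads and of the IDR set were used as the authors deposited them on dm6. Per the file headers, peaks were called on each replicate with a control, which was not analysed here. For the aligner and the peak caller, names and versions were not given in the sources used here. The deposited signal is a score with no fixed unit and was used only within a list. The authors' −log10 q values are 4.38 in every deposited IDR row and ranks nothing. The replicate and pooled lists hold exactly 30000 rows, so they were capped. Depth is unknown, and precision rests on the agreement of the replicates.

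Genes and TSSs were those of Ensembl release 115, and bases were read from RefSeq's copy of dm6. Of the IDR rows, 2 had a summit offset past the interval, which was set to its end. Replicate 1 holds 21 mitochondrial rows. Percentiles are the share of the list with the same or a lower signal. The replicate rank is that of the nearest summit within 100 bp. Words were searched on both strands.

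The members and gene lists were chosen with earlier results of these data known, so counts stand beside the share of all protein-coding genes and no test was run. Named are all 10 genes, genes with a TSS within 1 kb of a named promoter summit or over a summit, the 3 highest of each list, and genes without a summit where 5 or fewer lack one. List genes SA, Nelf-B and Spt4 were matched as SA1, NELF-B and spt4. Scripts (Python 3.11.15, numpy 2.4.6, pandas 2.3.3, matplotlib 3.10.9) were tested on simulated data. Alternatives were other promoter and gene windows, the 4671 IDR summits with the higher signal, each replicate alone, other overlaps, shorter words and the 5′ end as the only TSS.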

Additional observations from a re-analysis of the deposited data

How the results depend on the processing

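Of 42 alternative settings, 35 left a count within 1.5 times its value. The genes with a promoter summit numbered 9 within 500 bp (without mod(mdg4); 35.1% of protein-coding genes), 10 within 2 kb (45.3%), 9 with the 5′ end as the only TSS (without Trl; 37.4%) and 7 among the 4671 IDR summits with the higher signal (without CTCF, su(Hw) and mod(mdg4); 24.3%). Without replicate 1 or without replicate 2, with as many highest summits of the other list, the count was 10 both times (40.1% and 37.5% of protein-coding genes). These highest summits numbered 18 and 24 in the windows, where the IDR set had 22.

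Among the higher-signal summits, 5 promoter partner genes had a summit in place of 11. Counting within the gene span alone left 13 IDR summits and 21 pooled summits, and a window from 5 kb upstream to 2 kb past the end gave 61 pooled summits. Within 100 bp of the strongest promoter summit the DRE was found at 1 gene and the M1BP word at 0, and the shorter M1BP word was found at 2 promoters. These settings change the sequence or the number of summits searched. No paired analysis was possible because there was only 1 group. The depth of the libraries is unknown, and summits under the cap of 30000 cannot be seen.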

Other observations

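Further words were counted in the same promoter windows after the data were seen. GAGAG, a word of the kind read by the GAGA factor, was present in the windows of 36.3% of protein-coding genes and at 1 of the 10 genes, Trl itself. There were 11 overlapping or separate matches before the Trl TSS at 14757336, from position -117 to -47, and 1 before the TSS at 14757962, at -164. The other 2 start sites of Trl had 0. The summit nearest to the first of these start sites, at 14757198, lay 138 bp past it with a signal of 646.2.

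CGATA, the word of BEAF-32, which is contained in the DRE, was present at 53.0% of protein-coding genes and at 7 of the 10 genes. A run of 6 C was present at 4.42% of protein-coding genes and at 0 of the 10.

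Of the pooled summits below the IDR threshold, that of CTCF 198 bp upstream of its TSS had the highest signal among these genes, 204.3, and ranked 12175 and 20432 in the replicates. The pooled summit past the end of mod(mdg4), at 21350192, had 195.3 and lay 591 bp from the TSS of the neighbouring gene aus.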
